A study of Mus musculus with 8 samples.

Results

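Growth hormone acts on the liver through its receptor, and 10 genes of that axis are described here: the receptor gene *Ghr*, the signal transducer gene *Stat5b*, the feedback inhibitor genes *Socs2*, *Cish* and *Socs3*, the growth factor gene *Igf1*, its circulating partner gene *Igfals*, and the binding protein genes *Igfbp2*, *Igfbp3* and *Igfbp4*. The members were taken by gene symbol from the deposited table, and all 10 were found among its 55416 gene identifiers. They were measured by RNA sequencing of mouse liver in 4 libraries from animals that carry floxed *Smpd3* and an albumin-driven Cre recombinase (Alb-cre+, called knockouts) and in 4 libraries from floxed controls without Cre (Alb-cre-). Both groups received HFMCD feeding for 9 weeks, and the comparison holds no group on another diet. The albumin promoter drives Cre mainly in hepatocytes, so *Smpd3* of other liver cells is not targeted. Effects of Cre itself cannot be told apart from those of the deletion, since no group carries Cre without the floxed gene. The sources used here give no strain, age, sex, fasting state or time of collection. They also leave unsaid whether the libraries are from different animals, and p-values therefore speak of the scatter among these libraries, which may be technical.

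Growth hormone released in pulses by the pituitary binds its receptor on hepatocytes, and the receptor-bound kinase JAK2 phosphorylates STAT5 proteins, which enter the nucleus and switch on *Igf1*, *Igfals*, *Socs2* and *Cish*. SOCS2 and CIS, the *Cish* product, then restrain the receptor, while SOCS3 is induced chiefly by cytokines of the IL-6 family and can also dampen growth hormone signalling. The liver is the main source of circulating IGF-1, which travels bound to IGF binding proteins, most of it in a complex with IGFBP-3 and the acid-labile subunit encoded by *Igfals*.

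Promoter sequences from RefSeq (build GRCm38.p6, from 250 bases before to 50 bases after an annotated start site) were found for 9 of the 10 members, with *Socs2* as the exception. They were searched for the letters TTCNNNGAA, a motif bound by STAT5 that reads the same on both strands. It was found for *Cish*, *Igfals* and *Socs3*, that is for 3 of the 9 members, beside 9.55% of the 27025 mouse genes with an entry and 8.30% of all 32851 mouse promoter entries of the same length. The sequences below are shown because they hold the motif, printed in capitals within the lower-case promoter, 5′ to 3′. In *Cish* the letters TTCCTGGAA and TTCTTGGAA begin at positions 1 and 12, counted with the first transcribed base as position 1, and do not overlap. In *Igfals* TTCCTAGAA begins at position -58 of a start site, another *Igfals* entry holds TTCTCAGAA at position -236, and in *Socs3* TTCTTAGAA begins at position -154. A match describes the letters only.
*Cish* promoter, chr9:107296409-107296708, plus strand: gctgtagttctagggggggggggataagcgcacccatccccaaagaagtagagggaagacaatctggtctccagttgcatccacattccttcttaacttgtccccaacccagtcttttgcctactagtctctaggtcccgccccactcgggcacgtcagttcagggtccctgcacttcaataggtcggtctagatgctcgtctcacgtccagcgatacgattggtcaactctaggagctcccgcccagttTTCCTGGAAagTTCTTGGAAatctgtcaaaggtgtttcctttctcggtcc
*Igfals* promoter, chr17:24877981-24878280, plus strand: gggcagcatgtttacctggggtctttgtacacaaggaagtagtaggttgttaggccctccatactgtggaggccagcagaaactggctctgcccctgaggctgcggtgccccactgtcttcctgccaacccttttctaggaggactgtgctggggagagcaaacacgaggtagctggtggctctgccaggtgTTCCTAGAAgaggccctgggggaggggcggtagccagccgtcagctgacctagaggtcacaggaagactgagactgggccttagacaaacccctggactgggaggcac
*Socs3* promoter, chr11:117969317-117969616, minus strand: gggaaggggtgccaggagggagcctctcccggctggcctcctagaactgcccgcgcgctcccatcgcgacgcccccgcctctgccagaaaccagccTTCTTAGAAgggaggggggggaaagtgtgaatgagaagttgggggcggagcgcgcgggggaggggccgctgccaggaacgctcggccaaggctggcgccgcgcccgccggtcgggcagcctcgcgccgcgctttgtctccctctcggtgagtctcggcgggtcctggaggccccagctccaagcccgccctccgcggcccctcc

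Values are TPM, transcript abundances scaled to transcript length and to each library's own total, so that levels of different genes can be compared and the sequencing depth is unknown. Each library summed to between 994563 and 995449 TPM. *Smpd3* itself stood at 1.88 ± 0.86 TPM in knockouts and 9.58 ± 2.65 TPM in floxed controls (SD, n = 4 each), and the groups did not overlap. Y-linked genes were present in every library (*Eif2s3y* 18.1 to 27.0 TPM in knockouts and 18.1 to 26.75 TPM in floxed controls), and *Xist* did not exceed 0.11 TPM in any, which bears on an axis whose liver targets differ between the sexes. Hepatocyte markers were abundant in all libraries, with 64737 to 72947 summed TPM in knockouts and 71711 to 84004 in floxed controls over the 11 of 12 listed markers that were matched. Floxed control 4 stood apart from the other libraries, with 12115 genes reaching 1 TPM (the rest had 12474 to 12890) and the lowest summed markers of stellate cells and fibroblasts (296 TPM, against 497 to 707 in knockouts and 600.3 to 626 in the other controls). In bulk liver, fewer cells of a type and less RNA per cell cannot be told apart.

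No member passed the test across all genes, and the members were evenly split between higher and lower values in the knockouts. In limma on log2(TPM + 1), 0 of the 10 members reached a Benjamini-Hochberg adjusted p of 0.05, where 0.102% of the 12710 tested genes did (0.0472% higher and 0.0551% lower in knockouts). At an unadjusted p under 0.05 there were 3 members, *Cish* with higher values and *Igfbp2* and *Igfbp4* with lower values in the knockouts, beside 8.02% of all tested genes (5.57% higher and 2.45% lower). This count of members was 5 after median-of-ratios scaling, after quantile normalization and without floxed control 4. The groups did not overlap for *Cish* and *Igfbp4*, that is for 2 of 10 members, beside 4.74% of all tested genes (3.29% higher and 1.46% lower). Of the 10 members 5 had a higher and 5 a lower mean log2 value in the knockouts. Their median log2 fold change (knockout minus control) was -0.08, beside 0.05 for all tested genes, of which 64.6% had the higher value in the knockouts. The median over all tested genes was -0.0057 without floxed control 4 and -0.00025 after median-of-ratios scaling. The share of 64.6%, given beside the lists below, therefore holds for the main setting only.

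**Figure D1:**
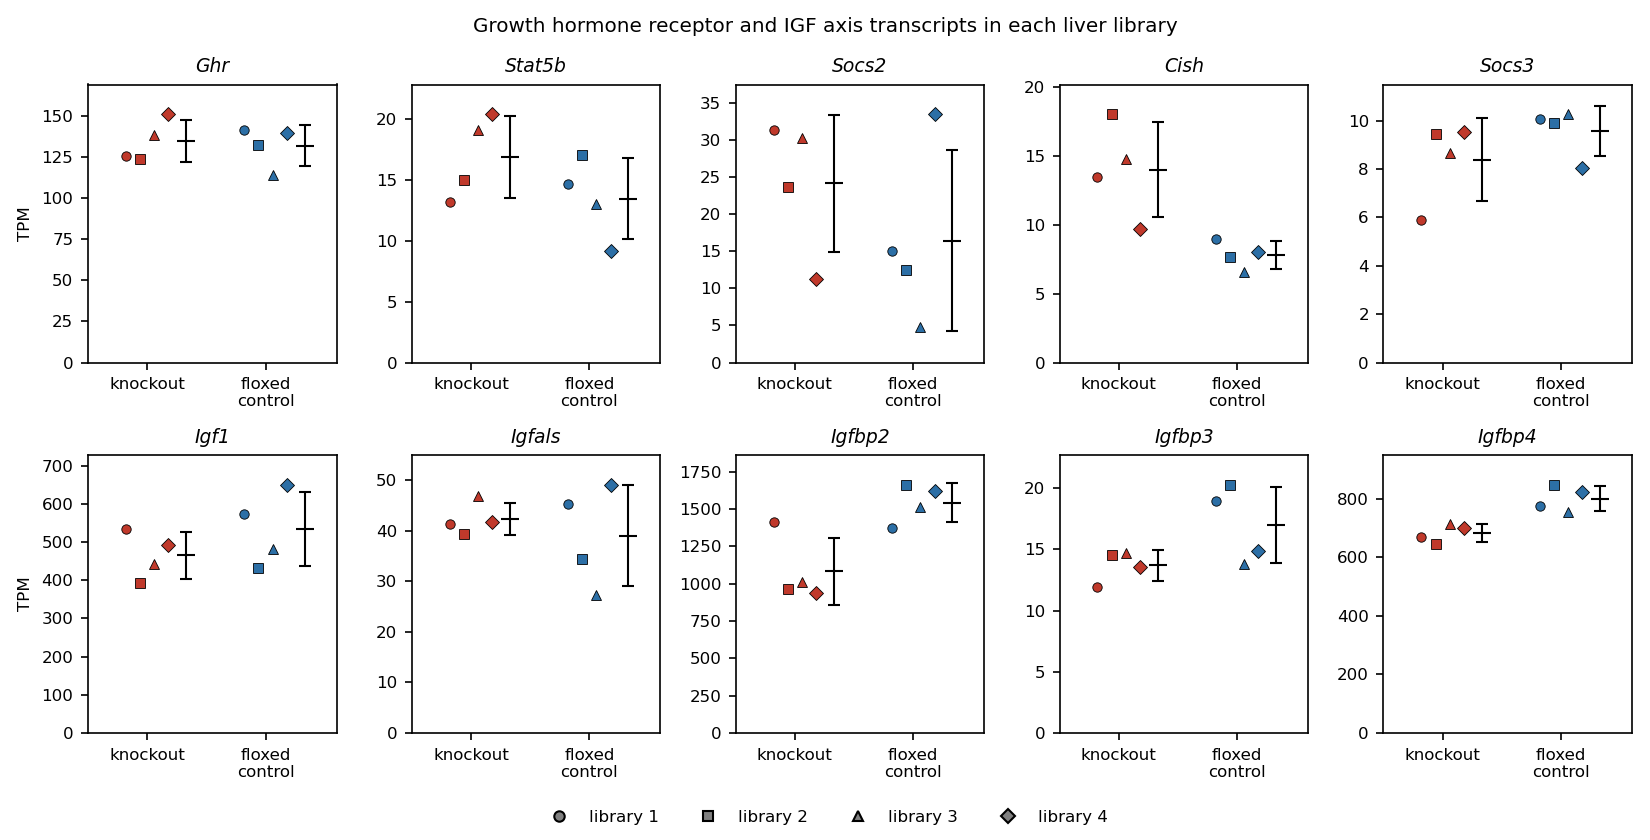
TPM of the 10 members in each library, with knockouts on the left and floxed controls on the right of each panel; symbols mark libraries 1 to 4 of each group, and the bar beside them is the mean with its SD (n = 4). *Cish* in knockouts (9.70 to 18.05 TPM) lies wholly above controls (6.56 to 8.99 TPM), *Igfbp4* in knockouts (645 to 714 TPM) wholly below controls (755 to 848 TPM), and the other 8 members overlap.

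The receptor gene differed least between the groups of all members. *Ghr* (ENSMUSG00000055737) stood at 125, 124, 138 and 151 TPM in knockouts 1 to 4 and at 141, 132, 114 and 139.6 TPM in floxed controls 1 to 4. The groups overlapped, with the lowest value in floxed control 3 and the highest in knockout 4. The means were 135 ± 12.8 TPM in knockouts and 132 ± 12.5 TPM in floxed controls (SD, n = 4 each), with a log2 fold change of 0.03 ± 0.10 (SE; 95% interval -0.19 to 0.25; limma adjusted p = 0.984). Its sign was negative after median-of-ratios scaling, after quantile normalization, and without knockout 4 or floxed control 3.

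*Stat5b* (ENSMUSG00000020919), the STAT5 gene that carries most growth hormone signalling in liver, had 13.15, 14.95, 19.0 and 20.4 TPM in the knockouts and 14.6, 17.0, 13.03 and 9.17 TPM in the floxed controls. The lowest value was that of floxed control 4, and the highest were knockouts 3 and 4, while the groups overlapped. Knockouts differed from controls by a log2 fold change of 0.32 ± 0.19 (SE; limma adjusted p = 0.760), which was 0.16 without floxed control 4. Genes of the same step that were singled out after their values were seen were *Jak2*, with 4.21 to 5.31 TPM in knockouts and 2.99 to 5.57 TPM in floxed controls, and *Stat5a*, with 6.95 to 9.56 TPM in knockouts and 4.53 to 8.58 TPM in floxed controls. Floxed control 4 was the lowest of all libraries in both.

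Among the feedback inhibitors, *Cish* (ENSMUSG00000032578) had the clearest difference. It stood at 13.5, 18.05, 14.8 and 9.70 TPM in knockouts 1 to 4, against 8.99, 7.64, 6.56 and 8.01 TPM in floxed controls 1 to 4. Every knockout lay above every control, with knockout 4 closest to them. The mean in knockouts, 14.0 ± 3.46 TPM, was 1.80 times that in floxed controls, 7.80 ± 1.00 TPM (SD, n = 4 each). This was a log2 fold change of 0.75 ± 0.18 (SE; 95% interval 0.36 to 1.14). It did not pass over all genes (limma adjusted p = 0.204), where it ranked 97 of 12710 by p. The exact permutation test of this single gene, 2-sided and unadjusted, gave p = 0.0286, and no smaller value is possible with 70 assignments. Over all alternatives tried the log2 fold change of *Cish* stayed between 0.56 and 0.90 with adjusted p between 0.121 and 0.443.

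*Socs2* (ENSMUSG00000020027), a STAT5 target like *Cish*, was the most variable member. It had 31.4, 23.6, 30.3 and 11.3 TPM in the knockouts and 15.0, 12.5, 4.79 and 33.5 TPM in the floxed controls. The highest and the lowest of the 8 values were both controls, floxed control 4 and floxed control 3, 6.99-fold apart. The means were 24.2 ± 9.23 TPM in knockouts and 16.4 ± 12.2 TPM in floxed controls (SD, n = 4 each). The SD within groups was 0.88 on the log2 scale, against 0.07 to 0.32 for the other 9 members. The log2 fold change of 0.71 ± 0.48 (SE; 95% interval -0.35 to 1.77; limma adjusted p = 0.804) became 1.13 without floxed control 4 (adjusted p = 0.483) and 0.27 without floxed control 3 (adjusted p = 0.973), within a range of adjusted p over all alternatives of 0.452 to 1.000.

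*Socs3* (ENSMUSG00000053113) had 5.87, 9.46, 8.68 and 9.51 TPM in the knockouts and 10.06, 9.89, 10.26 and 8.06 TPM in the floxed controls. Knockout 1 was the lowest library, and floxed control 4 lay among the knockouts. Between groups the log2 fold change was -0.19 ± 0.16 (SE; limma adjusted p = 0.868), and -0.04 without knockout 1. *Il6ra*, the receptor chain for IL-6 upstream of *Socs3*, had 4.13, 6.88, 10.2 and 10.03 TPM in knockouts and 15.0, 17.9, 12.0 and 10.6 TPM in floxed controls. All its knockout values lay below all control values, and it did not pass over all genes (log2 fold change -0.79 ± 0.25 SE, limma adjusted p = 0.377). The other listed receptor genes of the IL-6 family, *Il6st* (log2 fold change -0.05), *Osmr* (0.09) and *Lifr* (0.13), overlapped between the groups.

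**Figure D2:**
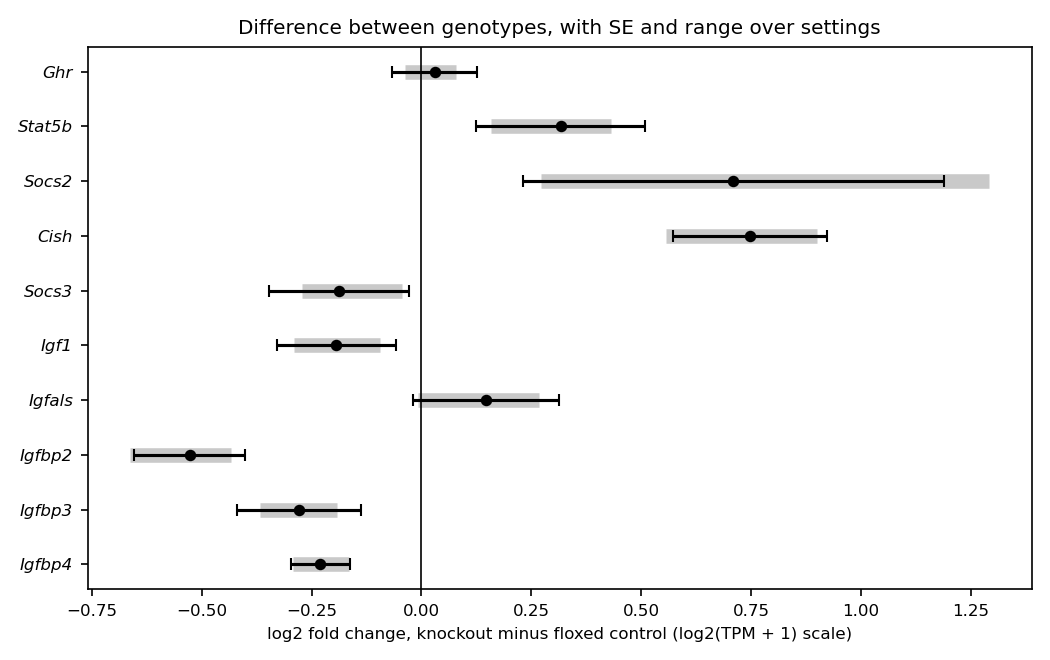
Log2 fold change of the 10 members, knockout minus floxed control, on the log2(TPM + 1) scale (horizontal axis), with the SE as black bars and the range over all settings tried as grey bars. *Cish* lies to the right of 0 and *Igfbp2*, *Igfbp3* and *Igfbp4* to the left in each setting, *Ghr* lies at 0.03 with a range that crosses 0, and *Socs2* has the widest range (0.27 to 1.29).

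The growth factor gene *Igf1* (ENSMUSG00000020053) was the third most abundant member in both groups. It stood at 533, 391.8, 441 and 493 TPM in the knockouts and at 574, 432, 482 and 649.8 TPM in the floxed controls. The groups overlapped, the lowest library being knockout 2 and the highest floxed control 4. The means were 465 ± 61.5 TPM in knockouts and 535 ± 96.6 TPM in floxed controls (SD, n = 4 each). On the log2 scale the difference was -0.19 ± 0.14 (SE; limma adjusted p = 0.817), with a 95% interval of -0.49 to 0.11. Without floxed control 4 it was -0.09, and over all alternatives it lay between -0.29 and -0.09.

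*Igfals* (ENSMUSG00000046070), which encodes the acid-labile subunit, had 41.3, 39.35, 46.7 and 41.7 TPM in the knockouts and 45.2, 34.5, 27.3 and 49.0 TPM in the floxed controls. The knockouts were close together, 1.19-fold from lowest to highest, and lay within the controls, which spanned 1.80-fold. Its log2 fold change was 0.15 ± 0.17 (SE; limma adjusted p = 0.912) and turned to -0.0081 without floxed control 3. The ratio of *Igf1* to *Igfals* TPM was 9.44 to 12.9 in knockouts and 12.5 to 17.7 in floxed controls, which overlapped at their ends.

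All 3 binding protein genes among the members had lower means in knockouts. *Igfbp2* (ENSMUSG00000039323), the most abundant member, stood at 1411, 962, 1012 and 940.4 TPM in knockouts 1 to 4, against 1373, 1662, 1511 and 1620.0 TPM in floxed controls 1 to 4. In knockouts 2, 3 and 4 it was below every control, while knockout 1 lay above floxed control 1. The means were 1081 ± 222 TPM in knockouts and 1541 ± 129 TPM in floxed controls (SD, n = 4 each), so that knockouts stood at 70.2% of the control mean. The log2 fold change was -0.53 ± 0.13 (SE; 95% interval -0.81 to -0.25; limma adjusted p = 0.207), and the exact permutation test gave p = 0.0571, 2-sided and unadjusted. Without knockout 1 the log2 fold change was -0.66 with an adjusted p of 0.0480, the one alternative in which a member passed, within a range of 0.0480 to 0.572 over all alternatives.

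*Igfbp4* (ENSMUSG00000017493), whose product binds IGFs and restrains their action, had 669, 645, 714 and 701 TPM in the knockouts, against 774, 848, 755 and 825 TPM in the floxed controls. Every knockout was below every control, and the spread within groups was the smallest of all members, 0.07 on the log2 scale. The means were 682 ± 31.0 TPM in knockouts and 800.4 ± 43.4 TPM in floxed controls (SD, n = 4 each). A log2 fold change of -0.23 ± 0.07 was found (SE; 95% interval -0.38 to -0.08; limma adjusted p = 0.300); the 2-sided exact permutation test gave p = 0.0286, unadjusted. Over the alternatives it was -0.29 to -0.17, with adjusted p from 0.252 to 0.787.

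*Igfbp3* (ENSMUSG00000020427), known in rat liver as a product of cells other than hepatocytes, had 11.9, 14.6, 14.7 and 13.6 TPM in the knockouts and 18.95, 20.3, 13.8 and 14.9 TPM in the floxed controls. Floxed controls 1 and 2 were above all other libraries, floxed control 3 lay among the knockouts, and floxed control 4 lay just above them. In limma the log2 fold change was -0.28 ± 0.14 (SE; limma adjusted p = 0.681). The 12 sinusoidal endothelial markers summed to 107 to 137 TPM in knockouts and 80.9 to 190.1 TPM in floxed controls, and none was at 0 in any library. Of the 12, 11 had the lower value in knockouts, while 64.6% of all tested genes had the higher value. The part of these markers in the values of *Igfbp3* was not tested.

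By level the members fell in the same order at the top in both groups, *Igfbp2* before *Igfbp4*, *Igf1*, *Ghr* and *Igfals*, and within each group the ranges of these 5 genes did not overlap. Among the lower members, *Igfbp3*, *Socs2*, *Stat5b*, *Socs3* and *Cish*, the ranges of neighbours overlapped in floxed controls, so their order there lay within the spread between libraries. *Cish* was the lowest member in floxed controls by mean, and *Socs3* in knockouts.

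The library pattern was uneven among members that share STAT5 as an activator. Floxed control 3 had the lowest value of all 8 libraries for *Igfals*, *Socs2* and *Cish*, and floxed control 4 had the highest for *Igf1*, *Igfals* and *Socs2*. The receptor gene *Ghr*, which acts upstream of STAT5, was also lowest in floxed control 3. Correlations over the 8 libraries were computed for 6 pairs. None passed after adjustment over the pairs by 2-sided exact permutation tests (adjusted p = 0.507 to 0.647 for Pearson's r and 0.535 to 0.665 for Spearman's rho). By Pearson's r the largest was that of *Socs2* with *Cish* (r = 0.64, exact permutation p = 0.0846; Spearman's rho = 0.45, exact permutation p = 0.267), whose r was 0.82 without floxed controls 3 and 4, the farthest in *Socs2*, and 0.59 for deviations from the group means. By Spearman's rho it was that of *Igf1* with *Igfals*, with r = 0.42 and rho = 0.60 (exact permutation p = 0.303 and 0.132). For the other pairs Pearson's r was 0.34 for *Ghr* with *Igf1*, 0.19 for *Igf1* with *Socs2*, -0.33 for *Socs3* with *Igf1* and 0.50 for *Igfbp2* with *Igf1*. The r of *Igf1* with *Igfals* was 0.28 without floxed control 4 and knockout 2 and 0.64 for deviations from the group means.

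**Figure D3:**
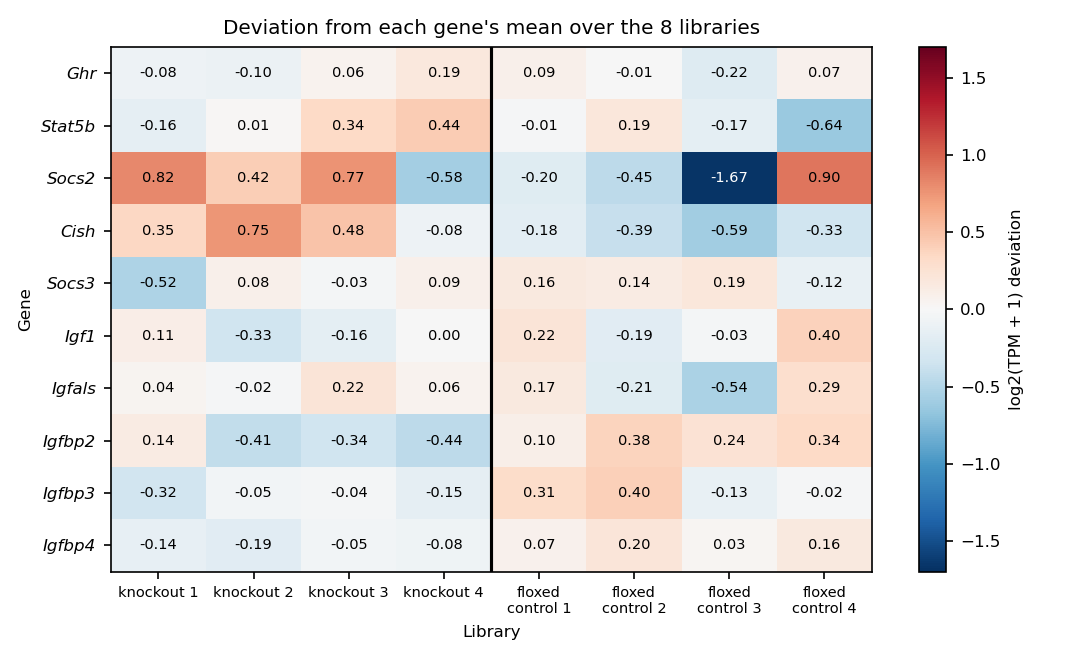
Deviation of each member (rows) from its own mean over the 8 libraries (columns, knockouts on the left of the black line and floxed controls on the right), in log2(TPM + 1) units. *Socs2* ranges from -1.67 in floxed control 3 to 0.90 in floxed control 4, *Cish* is at or above -0.08 in the knockouts and at or below -0.18 in the controls, and *Ghr* and *Igfbp4* stay within 0.22 of their means.

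Genes with the library pattern most like a member were taken as the 3 of highest Pearson's r over the 8 libraries among 11551 other tested genes with a symbol, as a description. For *Socs2* these were *Inafm1* (r = 0.92), *Cyp2c68* (0.90) and *Adck5* (0.90). For *Igf1* they were *Rps4l* (r = 0.92), *Ces3b* (0.89) and *Lpp* (0.88). For *Igfbp2* they were *Ypel3* (r = 0.97), *Hgsnat* (0.94) and *Coa6* (0.93), for *Ghr* *Neu2* (0.97), *Ttll5* (0.95) and *Tmem241* (0.94), and for *Socs3* *Mpzl3* (0.98), *Gse1* (0.97) and *Rab23* (0.97). Choosing the highest of so many correlations over 8 libraries makes such values large by selection.

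The rest of growth hormone signalling was examined in a list of 29 genes, kinases, phosphatases, adaptors and liver transcription factors among them. Of these 27 were tested and 0 passed in limma, with 2 at an unadjusted p under 0.05, both with higher values in knockouts, and 1 without overlap between groups. These counts were close to the shares over all tested genes, 8.02% and 4.74%, and the genes named from the list are given as a description. Their median log2 fold change was 0.06. The gene without overlap was *Prlr*, the prolactin receptor, which signals through JAK2 and STAT5 as GHR does. It had 17.0, 16.1, 21.25 and 17.3 TPM in knockouts, against 12.7, 11.65, 6.45 and 14.4 TPM in floxed controls. The means were 17.9 ± 2.28 TPM in knockouts and 11.3 ± 3.42 TPM in floxed controls (SD, n = 4 each; log2 fold change 0.66 ± 0.21 SE, limma adjusted p = 0.360). Floxed control 3 was again the lowest library, and without it the log2 fold change was 0.44 (adjusted p = 0.410, within 0.172 to 0.699 over all alternatives). *Ghr* TPM were 6.50 to 8.75 times those of *Prlr* in knockouts and 9.70 to 17.7 times in floxed controls. The transcription factor genes *Foxa2* (log2 fold change 0.25) and *Hnf4a* (-0.22), which help set hepatocyte expression, did not pass (limma adjusted p = 0.633 and 0.665), and the log2 fold change of *Hnf4a* was -0.13 without knockout 1.

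Of 23 listed IGF axis genes outside the members, receptors, other binding proteins, proteases and adaptors, 11 were tested and 0 passed in limma, with 2 at an unadjusted p under 0.05, beside 8.02% of all tested genes. Their median log2 fold change was 0.04. The genes at that unadjusted p were *Igfbp1* and *Irs2*, both of which insulin represses in liver. *Irs2* is also in the list of growth hormone signalling genes, so it is counted at that unadjusted p in both lists. *Igfbp1* stood at 462, 528, 541 and 463 TPM in the knockouts, against 41.8, 595, 57.8 and 61.3 TPM in the floxed controls. Floxed control 2 was the highest of all 8 libraries, while the other 3 controls lay far below every knockout. The means were 499 ± 42.2 TPM in knockouts and 189 ± 271 TPM in floxed controls (SD, n = 4 each), and the log2 fold change was 2.34 ± 0.67 (SE; limma adjusted p = 0.293). Without floxed control 2 it was 3.21 with an adjusted p of 9.11e-06, within a range of 9.11e-06 to 0.680 over all alternatives. *Irs2*, which encodes an adaptor of the insulin and IGF-1 receptors, had the same pattern, with 8.94, 7.63, 10.5 and 9.23 TPM in knockouts and 3.19, 9.79, 2.45 and 2.64 TPM in floxed controls. Its log2 fold change was 1.04 ± 0.32 (SE; limma adjusted p = 0.343), and 1.42 without floxed control 2 (adjusted p = 0.0173, within 0.0173 to 0.715 over all alternatives). The receptor gene *Igf1r*, singled out after its values were seen and below the filter on low values, stayed under 1 TPM in all libraries (0.31 to 0.43 TPM in knockouts and 0.25 to 0.51 TPM in floxed controls), where *Igf1* stood at 391.8 to 533 TPM in knockouts and 432 to 649.8 TPM in floxed controls.

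**Figure D4:**
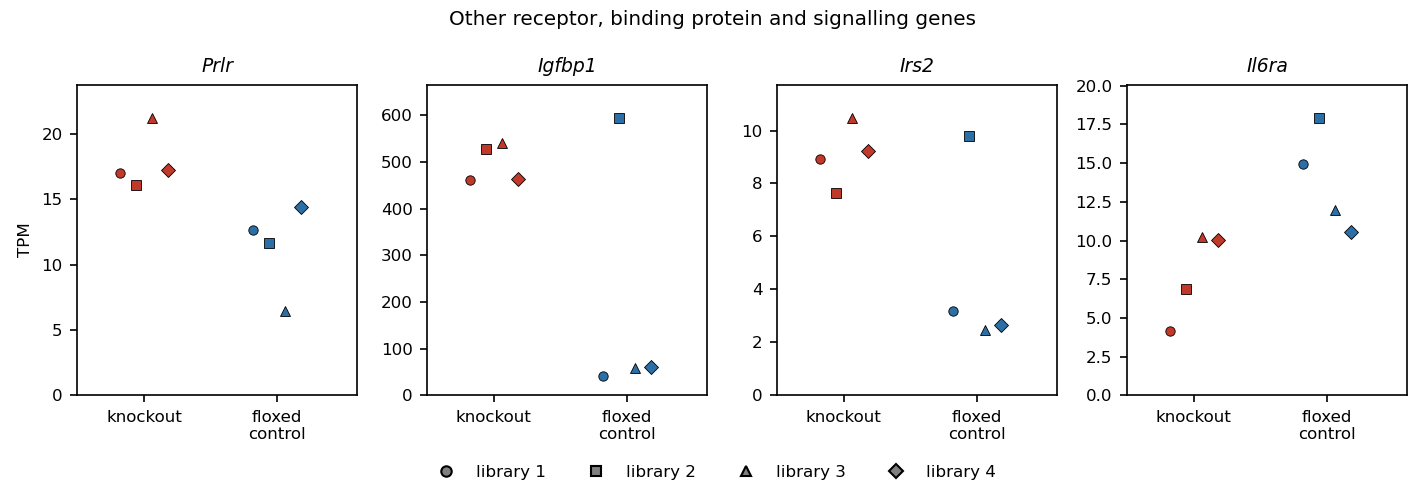
TPM of *Prlr*, *Igfbp1*, *Irs2* and *Il6ra* in each library, knockouts on the left and floxed controls on the right of each panel, with a symbol for each of libraries 1 to 4. Floxed control 2 (square) lies at 595 TPM for *Igfbp1* and 9.79 TPM for *Irs2*, beside the knockouts, while the other controls lie at 41.8 to 61.3 and 2.45 to 3.19 TPM.

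The makeup of binding protein transcripts follows from these values. Over *Igfbp1* to *Igfbp6*, which summed to 2119 to 2555 TPM in knockouts and 2209 to 3126 TPM in floxed controls, *Igfbp2* made up 55.2%, 44.7%, 44.3% and 44.4% in knockouts 1 to 4, against 62.1%, 53.2%, 64.6% and 64.2% in floxed controls 1 to 4. *Igfbp1* made up 18.1% to 24.6% in knockouts, against 19.0% in floxed control 2 and 1.89% to 2.47% in the other controls. The share of *Igfbp4* was 26.2% to 33.1% in knockouts and 27.1% to 35.0% in floxed controls, which overlapped. *Igfbp3* stayed under 1% of the sum in every library (0.467% to 0.677% in knockouts and 0.590% to 0.858% in floxed controls). Shares of a sum are tied to one another, so no test was made.

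**Figure D5:**
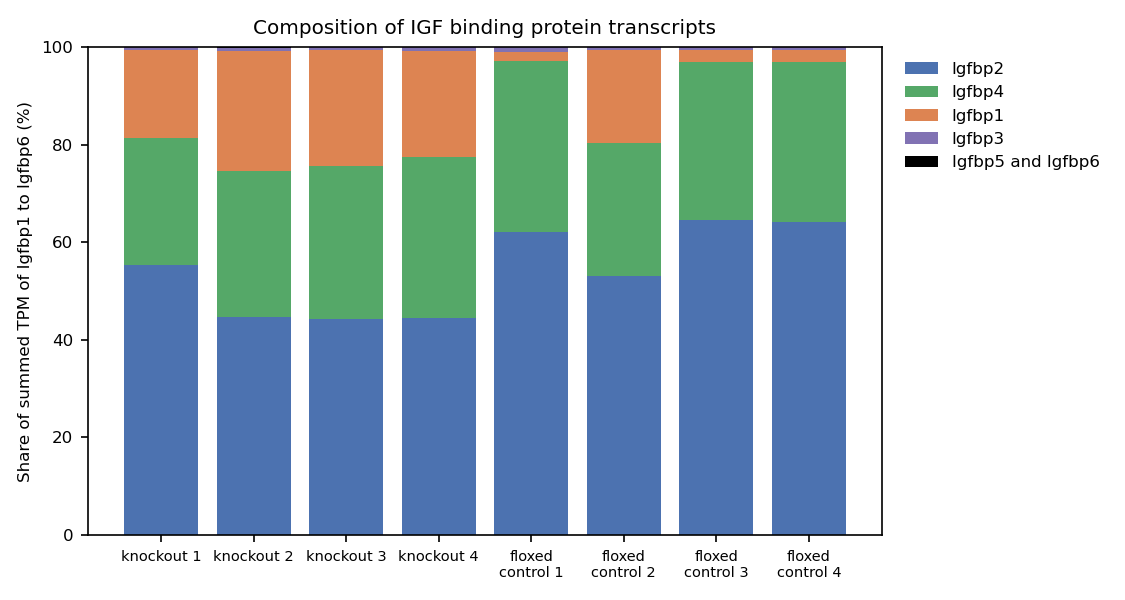
Share of the summed TPM of *Igfbp1* to *Igfbp6* (vertical axis, %) held by each gene in each library, with the 4 knockouts on the left and the 4 floxed controls on the right. *Igfbp1* takes 18.1% to 24.6% in knockouts and 19.0% in floxed control 2, and at most 2.47% in the other 3 controls.

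A list of 12 genes tied to fasting or insulin held *Igfbp1* and *Irs2* themselves. Of 12 such genes, 9 had higher values in knockouts (median log2 fold change 0.35), beside 64.6% of all tested genes (median 0.05). In limma 5 of the 12 were at an unadjusted p under 0.05, beside 8.02% of all tested genes, and 0 passed. The mean deviation of the 12 genes on the log2 scale, *Igfbp1* and *Irs2* included, was 0.10 to 0.35 in knockouts, 0.34 in floxed control 2 and -0.61 to -0.33 in the other controls. The part of *Igfbp1* and *Irs2* in this mean was not separated. *Fgf21* did not share the split, as floxed control 2, at 35.6 TPM, lay below all knockouts (57.2 to 127 TPM). *Foxo1*, *Ppargc1a* and *Tat* had lower values in knockouts (log2 fold change -0.27, -0.25 and -0.02). Among clock genes 1 of 14 tested, *Arntl*, passed (14.3 ± 3.55 TPM in knockouts and 4.77 ± 1.44 TPM in floxed controls; SD, n = 4 each; limma adjusted p = 0.0490, and 0.0310 to 0.230 over the alternatives), and 6 of 14 had groups that did not overlap (4 higher and 2 lower in knockouts), beside 4.74% of all tested genes. The part of feeding state and of collection time in the values of the axis was not tested.

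Liver genes known to depend on pulsatile growth hormone through STAT5 had mostly lower values in the knockouts, in 17 of 19 tested genes. Some of the 17 differed little, such as *C6* (log2 fold change -0.00089), *Mup3* (-0.04) and *Mup20* (-0.06). Over all tested genes 64.6% had the higher value in knockouts. In the list 0 genes passed the threshold in limma, and the median log2 fold change was -0.32, beside 0.05 for all tested genes. At an unadjusted p under 0.05 there were 4 with lower and 1 with higher values, beside 8.02% of all tested genes. The higher one was *Elovl3*, a fatty acid elongase gene, with 18.4 ± 3.25 TPM in knockouts and 13.9 ± 2.20 TPM in floxed controls (SD, n = 4 each; limma adjusted p = 0.534). Their mean deviation on the log2 scale was -0.55 to 0.06 in knockouts and -0.29 to 0.46 in floxed controls, so that the libraries overlapped. *Cyp2d9*, a steroid hydroxylase gene, stood at 245 ± 26.7 TPM in knockouts and 353 ± 12.5 TPM in floxed controls (SD, n = 4 each; limma adjusted p = 0.0730, and 0.0255 to 0.232 over the alternatives). *Mup1*, a major urinary protein gene with close copies that may share reads, stood at 94.1 ± 19.7 TPM in knockouts and 248 ± 97.2 TPM in floxed controls (limma adjusted p = 0.206, and 0.00702 to 0.544 over the alternatives). Its groups overlapped, with floxed control 2 at 107 TPM and knockout 1 at 120 TPM. Of the other listed *Mup* genes, *Mup7* had means of 240 TPM in knockouts and 794 TPM in floxed controls, also with overlap. The more abundant *Mup20* (9864 and 10301 TPM) and *Mup3* (1181 and 1266 TPM) differed little.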

How the data were processed

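Liver RNA from 4 knockout and 4 floxed control libraries was compared, with groups and numbers from the sample titles. The kit keeps strand and starts from total RNA, per the labels' protocols. The authors deposited 1 table of TPM values for 55416 gene identifiers, 1 column per library, rounded to 2 decimals. RSEM 1.3.3 and the build GRCh38.p13 are named in the submitters' processing notes. The build is human although the identifiers are mouse, so no gene coordinates are printed beyond those of the RefSeq promoters. For the aligner, the annotation and strand use, each was not given in the sources used here. Since TPM holds no depth, counting intervals and count tests were left out.

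Symbols were matched for 52083 identifiers. Genes reaching 1 TPM in 4 or more of the 8 libraries (12710, all 10 members among them) were compared as log2(TPM + 1) in limma 3.58.1 under R 4.3.3 (lmFit, eBayes with trend) with no covariate, and p-values were adjusted by Benjamini-Hochberg over all tested genes (threshold 0.05). The scale understates changes of genes with low TPM. The fit was checked on simulated libraries with known changes. Single members were also tested by 2-sided exact permutation of the difference in mean log2 value (70 assignments). The members and lists were chosen with earlier results of these data known. All members are named, and from each other list genes were taken among the 4 of smallest p and any past the threshold. *Jak2*, *Stat5a*, *Igf1r*, *Il6st*, *Osmr*, *Lifr*, *Foxo1*, *Ppargc1a*, *Tat*, *C6*, *Mup3*, *Mup7* and *Mup20* fall outside this rule and were chosen after their values were seen. The alternatives were pseudocounts of 0.1 and 5, other filters and scalings, robust eBayes, library weights, the replicate number in the model and leaving out each library. Leaving out floxed controls 2 and 4 together was added after the data were seen.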

Additional observations from a re-analysis of the deposited data

Results flagged for a closer look

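Among 19 members and pathway genes, each checked in both groups (38 checks in all), 5 had 1 library far from the other 3 of its group by Dixon's criterion, which chance meets in about 1 of 20 groups.

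*Igfbp2* stood at 1411 TPM in knockout 1, against 1012 TPM in the next knockout. *Socs3* stood at 8.06 TPM in floxed control 4, against 9.89 TPM in the next control. The other 3 were all in floxed control 2: *Igfbp1* at 595 TPM, against 61.3 TPM in the next control, *Irs2* at 9.79 TPM, against 3.19 TPM, and *Pdk4*, a kinase gene induced by fasting that limits glucose oxidation, at 19.6 TPM, against 7.77 TPM.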

How the results depend on the processing

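Each member kept the sign of its log2 fold change in all 19 alternatives, with the exception of *Ghr* and *Igfals*. That of *Ghr* was -0.033 after median-of-ratios scaling, -0.027 after quantile normalization, and -0.038 (without floxed control 3) to 0.069 when single libraries were left out, also negative without knockout 4. That of *Igfals* was -0.0081 (without floxed control 3) to 0.27. No member passed in 18 of the 19, the exception being *Igfbp2* without knockout 1, and the count was 0 to 1 when single libraries were left out. Members at an unadjusted p under 0.05 numbered 3, and 3 to 5 over the alternatives. The number of genes past the threshold, 13 in all, was 8 and 6 with pseudocounts of 0.1 and 5, 0 without a filter, 25 after rescaling without mitochondrially encoded and the 20 most abundant genes, 20 with library weights, 7 without floxed controls 2 and 4, and 0 to 12 when single libraries were left out. The cause was not tested. With the replicate number as a block 0 genes and 0 members passed. No pairing by number was seen, since deviations of same-numbered libraries correlated at -0.20 to 0.03 and no knockout correlated best with its own number. With so few libraries, these correlations cannot show that nothing was shared under a number. The correlation of *Igf1* with *Socs2*, r = 0.19, was -0.12 to 0.37 when single libraries were left out, negative without floxed control 4. Depth is unknown, so what it limits cannot be given.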

Other observations

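Acute phase genes, which IL-6 and STAT3 drive alongside *Socs3*, were listed together with *Stat3* and the receptor genes *Il6ra*, *Il6st*, *Osmr* and *Lifr*. All 23 listed genes were tested, and 0 passed in limma. At an unadjusted p under 0.05 there were 5 with higher and 1 with lower values in knockouts, beside 8.02% of all tested genes. The groups did not overlap for 2 with higher and 1 with lower values, beside 4.74% of all tested genes. The 1 lower gene in both counts was the receptor gene *Il6ra*. The median log2 fold change was 0.04, beside 0.05 for all tested genes. *Saa3*, a serum amyloid gene, stood at 122 ± 12.1 TPM in knockouts and 97.8 ± 7.82 TPM in floxed controls (SD, n = 4 each; limma adjusted p = 0.336), without overlap between the groups. *Itih4*, an inter-alpha-trypsin inhibitor chain gene, stood at 825 ± 27.3 TPM in knockouts and 733 ± 59.2 TPM in floxed controls (limma adjusted p = 0.594), also without overlap.

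Genes with higher expression in female than in male liver, which continuous growth hormone favours, were below the filter on low values for 10 of 20 listed. Of the other 10, 0 passed in limma, and 8 had higher and 2 lower values in knockouts, where 64.6% of all tested genes had the higher value. At an unadjusted p under 0.05 there were 2 higher and 1 lower, beside 8.02% of all tested genes. The median log2 fold change was 0.28, beside 0.05 for all tested genes. *Cyp2a4*, a steroid hydroxylase gene with close copies that may share reads, stood at 11.04 ± 3.33 TPM in knockouts and 5.94 ± 1.27 TPM in floxed controls (SD, n = 4 each; limma adjusted p = 0.230). *Sult1e1*, the estrogen sulfotransferase gene, stood at 2.11 to 4.69 TPM in knockouts and at 4.35, 23.1, 4.91 and 14.2 TPM in floxed controls 1 to 4 (limma adjusted p = 0.520).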
